A study of Mus musculus with 11 samples.

Results

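The genes of cholesterol synthesis and its feedback control described here were followed through mouse liver development, namely Hmgcs1, Idi1, Fdps, Sqle, Lss, Cyp51 and Insig1. They were chosen by name, as 7 of the 16704 genes tested, and the arrays carried 16 probes for them among 41174 probes. RNA of normal mouse liver from embryonic day 14 (E14), embryonic day 18 (E18), post-natal day 5 (P5) and post-natal day 56 (P56) was labeled with Cy5 on 11 Agilent 4x44k arrays, 3 per stage except P5, which had 2 (replicates 2 and 3). Every array carried the same Cy3-labeled reference RNA, bought as normal adult liver of the mouse, with no dye swap, so each value below is a log2 ratio to adult liver.

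The replicates are labeled as biological, and the labels name no treatment, genotype or strain. The study's methods name C57BL/6 mice for cells taken from E14 and E18 livers into culture, and whether the arrays' RNA came from such mice is not settled. The labels call the cells hepatoblasts at E14, immature hepatocytes at E18 and hepatocytes at P5 and P56, while the source is given as liver. The protocol speaks of whole livers and also of hepatoblasts and immature hepatocytes isolated from E14 and E18 livers, so whether an embryonic array held isolated cells is not settled. The mean log2 ratio of 10 erythroid genes was 3.39 to 3.51 on the E14 arrays, 3.47 to 3.63 at E18 and 2.84 to 3.33 at P5. On the P56 arrays it was -0.20 to 0.09, and 3 of the 10 were not well above background. The mean of 6 hepatoblast genes was 3.67 to 3.77 at E14, 4.215 to 4.236 at E18, 3.62 to 3.66 at P5 and 0.05 to 0.40 at P56. At P56, 2 of these 6 were not well above background. For 6 hepatocyte genes the mean was -4.12 to -3.91 at E14, -1.40 to -1.29 at E18, -0.11 to 0.09 at P5 and -0.65 to 0.15 at P56. In such mixed RNA, fewer cells of a type and less RNA per cell cannot be told apart. Between 16790 and 25718 of 43379 spots per array were well above background in Cy5, with the lowest number on a P56 array. Replicates correlated with r of 0.969 or more across genes at E14 and E18, 0.901 at P5 and 0.827 to 0.937 at P56.

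Cholesterol is built from acetyl-CoA through the mevalonate pathway, squalene and lanosterol, and the liver is a main site of this synthesis. When sterols in the endoplasmic reticulum are low, SREBP transcription factors are carried to the Golgi by Scap, cleaved, and turn on the genes of the pathway. Insig1, itself a target of SREBP, holds Scap in the endoplasmic reticulum when sterols are plentiful. Of the other 6 genes, Hmgcs1 makes HMG-CoA, Idi1 interconverts the 5-carbon isoprenoid units, Fdps joins them to farnesyl diphosphate, Sqle oxidizes squalene, Lss closes the ring to lanosterol, and Cyp51 removes a methyl group of lanosterol.

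Promoters are shown because SREBP acts at such sequences. Whether it had a part in the course that the 7 genes shared between successive stages was not tested. The RefSeq table (GRCm38.p6) held 5 of the 7 genes, all but Fdps and Sqle. The 250 bases before the start were searched on both strands for TCACNCCAC (a form of the sterol regulatory element), CCAAT (the box bound by NF-Y) and GGGCGG (the GC box bound by Sp1), and no matches overlapped in the 5 genes. Capitals mark the matches, and the strand read is that of the gene. The windows of Lss and Idi1 were searched too and are not shown.

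Hmgcs1, chr13:119690101-119690350, plus strand: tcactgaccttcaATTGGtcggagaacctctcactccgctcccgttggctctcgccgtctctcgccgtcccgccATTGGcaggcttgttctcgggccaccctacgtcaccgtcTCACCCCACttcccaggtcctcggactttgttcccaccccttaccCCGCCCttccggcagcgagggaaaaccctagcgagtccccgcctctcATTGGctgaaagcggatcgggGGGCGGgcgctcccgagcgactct
Insig1, chr5:28071162-28071411, plus strand: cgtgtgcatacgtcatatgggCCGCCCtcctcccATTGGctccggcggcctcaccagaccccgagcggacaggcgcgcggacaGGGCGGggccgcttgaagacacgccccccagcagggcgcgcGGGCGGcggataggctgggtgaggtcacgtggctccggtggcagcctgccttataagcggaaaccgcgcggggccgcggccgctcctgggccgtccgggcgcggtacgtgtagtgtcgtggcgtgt
Cyp51, chr5:4104698-4104947, minus strand: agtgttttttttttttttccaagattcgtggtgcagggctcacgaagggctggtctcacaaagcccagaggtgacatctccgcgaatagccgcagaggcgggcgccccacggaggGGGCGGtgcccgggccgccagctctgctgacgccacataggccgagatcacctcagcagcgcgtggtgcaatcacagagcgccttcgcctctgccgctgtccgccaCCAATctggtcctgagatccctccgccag

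The sterol regulatory element letters stood in 1 of the 5 windows, that of Hmgcs1, from -137 to -129 relative to the start, and in 1.05% of all 32851 promoters of the table. CCAAT was found in all 5 windows and in 33.8% of promoters, and GGGCGG in all 5 and in 32.7%. These are matches of letters, and no match says only that these letters are not in this window.

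Probe coordinates are on mm7, as the array files give them. The files place 3 of the 16 probes, each of 60 bases, over a longer stretch of genome, so these probes are split on the chromosome, and they are shown because each reads its gene across such a split. An annotation of mm7 was not used, so whether the other probes lie in coding sequence or in a UTR is not given.

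Fdps, probe A_51_P379798, chr3:89208691-89208831, minus strand: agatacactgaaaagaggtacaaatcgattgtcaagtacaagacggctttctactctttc
Cyp51, probe A_51_P485791, chr5:4098039-4098445, minus strand: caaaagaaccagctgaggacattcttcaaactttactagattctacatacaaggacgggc
Insig1, probe A_52_P393392, chr5:27107061-27107533, plus strand: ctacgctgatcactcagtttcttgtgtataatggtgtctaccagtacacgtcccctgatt

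The files place both Idi1 probes on chromosome 2 and the Hmgcs1 probes on unplaced sequence, while the RefSeq table has both genes on chromosome 13. Values for these genes are those of the probes so named. For each gene the brightest of its kept probes was tested, and the others are compared further on.

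Over the 4 stages, the 7 genes went up from E14 to E18, down at P5 and up again at P56. All 7 were higher at E18 than at E14, with log2 fold changes of 0.94 to 2.36 and a median of 1.46, while the median over all genes was -0.01. At the threshold used throughout, a limma adjusted p under 0.05 over all genes, 24.6% of genes were higher at E18. All 7 were lower at P5 than at E18, by a median of -1.93 and within -2.98 to -1.37, and here 6.4% of genes were lower (2.07% to 11.5% with 1 E18 or P5 array left out). All 7 were higher at P56 than at P5, by 0.75 to 3.12 with a median of 1.89, where 20.9% of genes were higher (12.4% without P5 replicate 2), though with median centring of arrays in place of loess, which moved all genes by -0.47, Lss was at -0.059. Without either P5 array all 7 stayed lower at P5 than at E18. The methods' t-test, which takes each gene's spread alone, called 7 of the 7 at P5 against E18 before adjustment and 1 after it, and 6 and 1 at P56 against P5. By that test 9.79% of all genes were lower at P5 than at E18 before adjustment and 0.126% after it. For P56 against P5, 15.1% and 0.629% of all genes were higher. These comparisons share the E18 or the P5 arrays, so they are not independent of each other. No gene's arrays overlapped between successive stages, which held for 30.9% of all genes as higher at E18, 21.5% as lower at P5 and 28.3% as higher at P56.

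**Figure D1:**
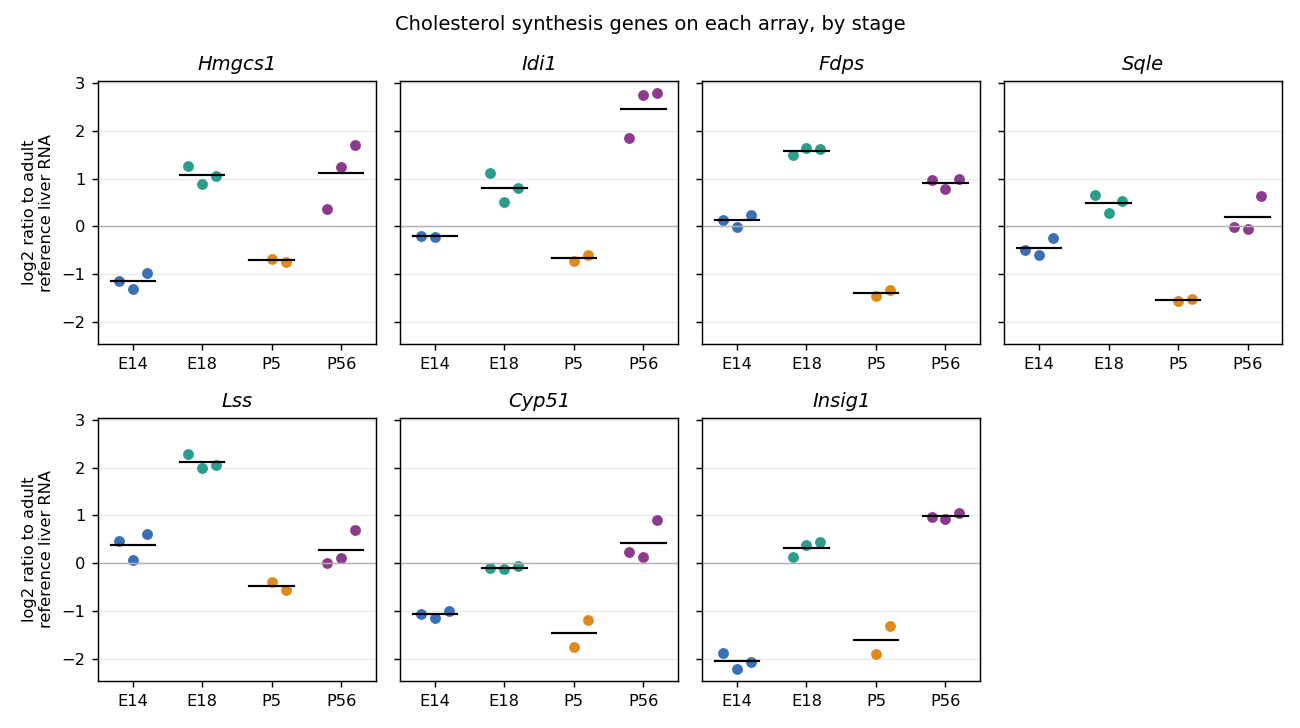
Each panel plots 1 gene's log2 ratio to the adult reference on every array (points) by stage, with the stage mean as a black bar. In all 7 panels the E18 points lie above the E14 points, the P5 points below the E18 points and the P56 points above the P5 points, while Idi1 lacks a value on 1 E14 array.

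Hmgcs1, the cytosolic synthase at the entry of the pathway, had log2 ratios of -1.15, -1.32 and -0.98 at E14, 1.26, 0.89 and 1.06 at E18, -0.68 and -0.74 at P5, and 0.37, 1.25 and 1.71 at P56. All E18 arrays were above the reference and all E14 and P5 arrays below it, while P56 replicate 1 was the lowest of the 3 P56 arrays. Hmgcs1 rose 4.64-fold from E14 to E18 (log2 2.21 ± 0.26, SE, adjusted p = 2.62e-05), fell by 1.78 on the log2 scale at P5 (adjusted p = 0.0022) and rose 3.55-fold to P56 (adjusted p = 0.000327, and 0.0514 in the authors' table). Its level was highest at P56 (1.11 ± 0.68, SD, n = 3) and E18 (1.07 ± 0.18, n = 3), neighbours that differed by 0.05 with a 95% interval of -0.52 to 0.61. The sign of that difference turned without E18 replicate 2, P56 replicate 2 or P56 replicate 3, and without P56 replicate 1 it was 0.42 with an adjusted p of 0.0369. P5 (-0.71 ± 0.04, n = 2) and E14 (-1.15 ± 0.17, n = 3) followed, and these did not pass the test either (0.43, adjusted p = 0.238).

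Idi1, the isomerase of the isoprenoid units, gave -0.19 and -0.22 at E14, where replicate 3 was left out as an outlier spot, then 1.11, 0.52 and 0.80 at E18, -0.72 and -0.59 at P5, and 1.86, 2.75 and 2.80 at P56. Each adult array stood above all others, also above the adult reference. The rise from E14 to E18 was 2.03-fold (adjusted p = 0.00723), the fall at P5 was -1.46 ± 0.26 (SE, adjusted p = 0.00455), and the rise from P5 to P56 was 8.70-fold (3.12 ± 0.26, adjusted p = 4.62e-06). In the authors' table the first 2 of these steps missed the threshold (adjusted p of 0.0869 and 0.0897). From the highest level down, the order was P56 (2.47 ± 0.53, SD), E18 (0.81 ± 0.30), E14 (-0.21 ± 0.02) and P5 (-0.65 ± 0.09). P56 and E18 differed by 1.66 (adjusted p = 8.5e-05), whereas E14 and P5 did not pass the test (-0.44, adjusted p = 0.219).

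Fdps, the prenyltransferase that makes farnesyl diphosphate, had the smallest standard errors of the 7 genes. Its log2 ratios were 0.14, -0.01 and 0.25 at E14, 1.49, 1.64 and 1.62 at E18, -1.45 and -1.34 at P5, and 0.97, 0.78 and 0.99 at P56, so no 2 stages overlapped. It rose 2.75-fold to E18 (1.46 ± 0.10, SE, adjusted p = 3.69e-07), fell by 2.98 at P5 (SE 0.11, adjusted p = 1.68e-07), which is a 7.90-fold fall, and rose 4.95-fold to P56 (adjusted p = 4.01e-08). The levels were ordered E18 (1.59 ± 0.08, SD), P56 (0.91 ± 0.12), E14 (0.13 ± 0.13) and P5 (-1.40 ± 0.08), and each neighbour differed from the next on the tested probe, although in the authors' table E18 and P56 did not (adjusted p = 0.203).

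Sqle, the squalene epoxidase, gave -0.50, -0.61 and -0.24 at E14, 0.65, 0.29 and 0.53 at E18, -1.57 and -1.52 at P5, and -0.01, -0.05 and 0.64 at P56. Both P5 arrays lay more than 1 log2 unit under the mean of every other stage. The gene rose 1.92-fold to E18 (adjusted p = 0.000951), fell 4.09-fold at P5 (-2.03 ± 0.20, SE, adjusted p = 7.76e-05) and rose 3.34-fold to P56 (adjusted p = 2.85e-05). E18 (0.49 ± 0.18, SD) and P56 (0.20 ± 0.39) stood highest and did not pass the test of their difference (-0.29, 95% interval -0.68 to 0.09), although without P56 replicate 3 it was -0.52 with an adjusted p of 0.00794. E14 (-0.45 ± 0.19) came next and P5 (-1.54 ± 0.04) last.

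Lss, which makes lanosterol, had log2 ratios of 0.47, 0.07 and 0.60 at E14, 2.28, 2.00 and 2.06 at E18, -0.40 and -0.57 at P5, and 0.00, 0.10 and 0.69 at P56. Arrays of P56 overlapped those of E14 and lay far below those of E18. Lss rose 3.32-fold to E18 (1.73 ± 0.18, SE, adjusted p = 1.24e-05) and fell 6.06-fold at P5 (-2.60 ± 0.21, adjusted p = 1.77e-05). It rose 1.68-fold to P56 (0.75 ± 0.21, adjusted p = 0.0108), which missed the threshold without P5 replicate 3 (0.67, adjusted p = 0.0527). The order was E18 (2.11 ± 0.15, SD), E14 (0.38 ± 0.28), P56 (0.27 ± 0.37) and P5 (-0.48 ± 0.12), and E14 and P56 differed by -0.12 with a 95% interval of -0.52 to 0.28.

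Cyp51, the lanosterol demethylase, gave -1.07, -1.14 and -1.01 at E14, -0.10, -0.12 and -0.07 at E18, -1.75 and -1.19 at P5, and 0.23, 0.13 and 0.90 at P56. E18 arrays were within 0.057 of each other, while the 2 from P5 were 0.55 apart. The rise to E18 was 1.97-fold (0.98 ± 0.19, SE, adjusted p = 0.00109), the fall at P5 was 2.59-fold (-1.37 ± 0.21, adjusted p = 0.00147) and the rise to P56 was 3.72-fold (adjusted p = 2.33e-05). P56 (0.42 ± 0.42, SD) was above E18 (-0.10 ± 0.03), with an adjusted p of 0.0284 that rose to between 0.0588 and 0.12 without any 1 of the 3 E18 arrays or without P56 replicate 3, and was 0.0888 with the scan as a random block. E14 (-1.07 ± 0.07) and P5 (-1.47 ± 0.39) followed and did not pass the test of their difference (-0.40, adjusted p = 0.137).

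Insig1, the sterol-sensing partner of Scap, gave -1.87, -2.22 and -2.06 at E14, 0.12, 0.38 and 0.43 at E18, -1.91 and -1.31 at P5, and 0.96, 0.93 and 1.05 at P56. All E14 and P5 arrays were below the reference and all E18 and P56 arrays above it. It rose 5.15-fold from E14 to E18 (2.36 ± 0.15, SE, adjusted p = 1.87e-07), fell 3.80-fold at P5 (-1.93 ± 0.17, adjusted p = 3.94e-05) and rose 6.04-fold to P56 (2.60 ± 0.17, adjusted p = 3.56e-07). P56 (0.98 ± 0.06, SD) was above E18 (0.31 ± 0.17, adjusted p = 0.00216), and both were above P5 (-1.61 ± 0.42) and E14 (-2.05 ± 0.17).

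Stages that do not follow each other were compared to ask whether the members came back to an earlier level. Between P56 and E18 the genes parted: Idi1, Cyp51 and Insig1 were higher at P56, Lss and Fdps lower, and Hmgcs1 and Sqle did not pass the test, against 31.2% of all genes higher and 33.6% lower. Lss was 3.60-fold lower at P56 (-1.85 ± 0.18, SE, adjusted p = 3.98e-06) and Fdps 1.60-fold lower (-0.68 ± 0.10, adjusted p = 0.000107), while Idi1 was 3.16-fold higher. The other kept Fdps probe did not pass for P56 against E18 (-0.31, adjusted p = 0.233 over all kept probes). When arrays were centred on their median in place of loess, all genes moved by a median of -0.42 in this comparison, and Cyp51 (-0.34) and Insig1 (-0.22) turned below 0 but stayed above that median. Between P56 and E14, 6 members were higher, by 0.64 to 3.03, and Lss did not pass the test, with 36.1% of all genes higher. Median centring moved all genes by -0.33 here, and under it Sqle (-0.087, adjusted p = 0.743) and Fdps (0.20, adjusted p = 0.39) did not pass, while Lss passed as lower (-0.91, adjusted p = 0.00031). With the mean over kept probes Lss passed as higher (0.29, adjusted p = 0.0409), so its direction depends on these choices. Sqle also missed the threshold with the methods' t-test before and after adjustment. Insig1 was 8.19-fold higher at P56 than at E14 (3.03 ± 0.15, adjusted p = 7.04e-09).

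P5 was set against E14 after the data had been seen. Sqle (-1.10 ± 0.20, SE, adjusted p = 0.00067), Lss (-0.87 ± 0.21, adjusted p = 0.00414) and Fdps (-1.52 ± 0.11, adjusted p = 7.19e-07) were lower at P5 than at E14, where 24.1% of all genes were lower. The other kept Fdps probe gave -0.00055 here (adjusted p = 0.999 over all kept probes), so the Fdps call rests on 1 probe. The Lss call was lost with the mean over kept probes (-0.30, adjusted p = 0.076), in the authors' table (-0.58, adjusted p = 0.131) and with the methods' t-test after adjustment (0.0739). Insig1 passed narrowly in the other direction (0.44, adjusted p = 0.0499, 24.9% of all genes higher), its P5 arrays overlapped those of E14, and the call was lost without any 1 of E14 replicates 2 and 3, E18 replicates 2 and 3, P5 replicate 3 and the P56 arrays, with adjusted p of 0.0534 to 0.541. Hmgcs1, Idi1 and Cyp51 did not pass, and each passed without 1 array: Hmgcs1 and Idi1 without P56 replicate 1 (adjusted p of 0.0373 and 0.0471) and Cyp51 without P5 replicate 3 or P56 replicate 3 (0.0375 and 0.0436).

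**Figure D2:**
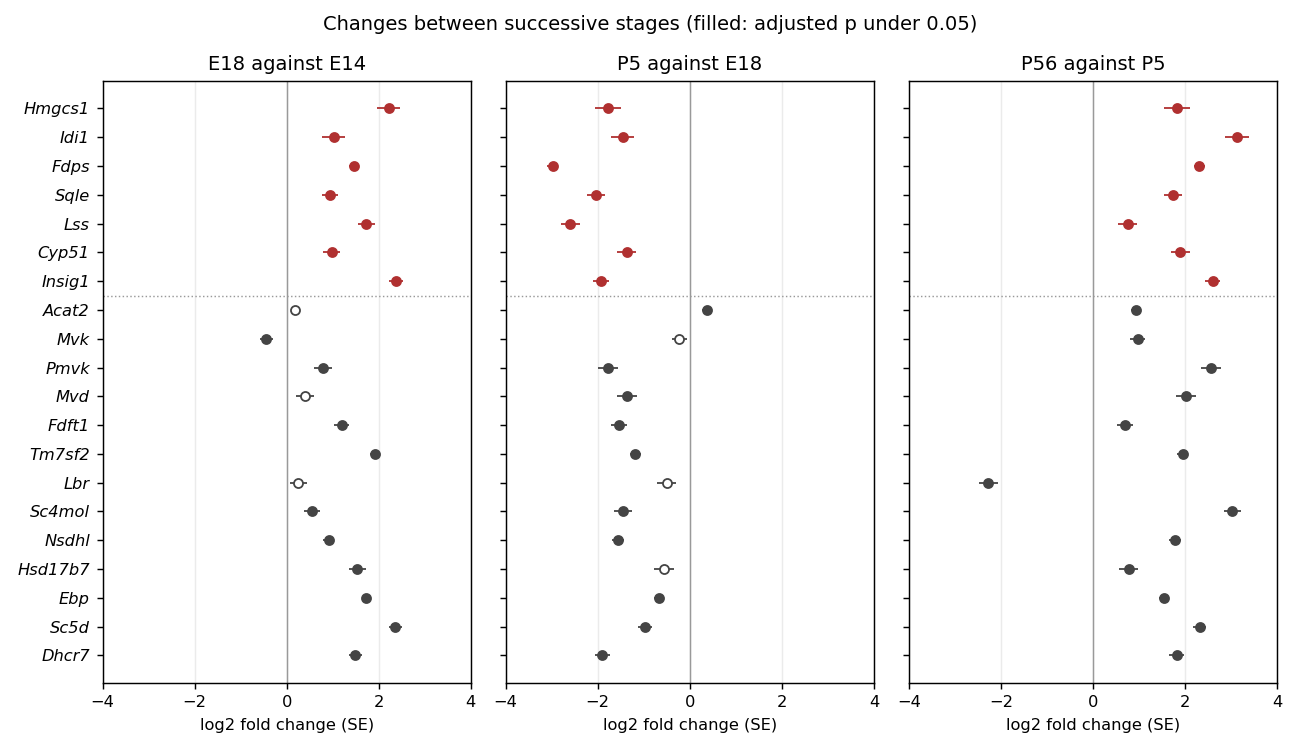
Each panel plots the log2 fold change between 2 successive stages, with the SE as a bar, for the 7 genes (red, above the dotted line) and 13 of the 14 other enzymes of sterol synthesis tested (grey). The red points are all filled and on 1 side of 0 in each panel, and Lbr stands apart from the other enzymes at P56 (-2.28).

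The arrays were scanned in 4 runs by the scan times in the files. Scan 1 held the E14 arrays and 1 E18 array, and within it the 7 genes were higher at E18 by 0.97 to 2.40. Scan 4 held the P56 arrays and 1 P5 array, and within it the 7 genes were higher at P56 by 0.83 to 3.06. Scans 1 and 2 held only embryonic arrays and scans 3 and 4 only postnatal ones, so in every comparison of an embryonic with a postnatal stage, the fall at P5 among them, scan and stage cannot be told apart. A fit with the scan as a random block gave -2.98 to -1.37 for the 7 genes at P5 against E18, with adjusted p of at most 0.00875, and does not separate them.

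Other cell types changed between the same stages, and their part in the members' changes was not tested. From E14 to E18, 6 of 6 hepatocyte, 7 of 7 macrophage and 5 of 5 other haematopoietic markers rose, where 24.6% of all genes were higher. The mean macrophage ratio went from between -2.84 and -2.46 to between -1.44 and -1.12. From E18 to P5, where the members fell, 2 of 6 hepatocyte markers rose and the other 4 did not pass the test, where 7.32% of all genes were higher. In this step 3 of 5 other haematopoietic, 2 of 10 erythroid and 1 of 6 hepatoblast markers fell and none of these lists had a rise, where 6.4% of all genes were lower. From P5 to P56, 10 of 10 erythroid markers and 9 of 9 cell cycle genes fell, 4 of 7 macrophage markers fell, and of the hepatocyte markers 2 rose and 3 fell. Endothelial (6 of 6), hepatoblast (5 of 6) and other haematopoietic markers (4 of 5) fell too, where 24.7% of all genes were lower and 20.9% higher.

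The other probes of the genes were read as a check on the brightest. Of the 16 probes, 15 were kept, and the remaining Hmgcs1 probe (A_52_P119039) was well above background in Cy5 on 2 of 11 arrays. None of the 16 was saturated on any array. The 8 dimmer probes kept went the same way as the tested probe of their gene in all 3 successive comparisons. With p adjusted over all kept probes as single features, 7 of the 8 passed at E18 against E14, 7 at P5 against E18 and 8 at P56 against P5. The exception in the first 2 was the second Idi1 probe, with 0.39 (adjusted p = 0.223) and -0.73 (adjusted p = 0.107), so the Idi1 calls there rest on 1 probe. The dimmer probes had smaller differences in 7, 8 and 8 of the 8 cases: the second Hmgcs1 probe rose by 0.53 to E18, against 2.21 for the brightest. The Lss probes parted for P56 against E14, where the tested probe gave -0.12 and the others 0.79 (adjusted p = 0.000129) and 0.21 (adjusted p = 0.0499), and 1 of these also rose from E14 to P5 (0.41) where the tested probe fell. The second Fdps probe did not pass for P56 against E18 or for P5 against E14, where the tested probe passed as lower. Only differences within a probe are compared here, not levels between probes.

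**Figure D3:**
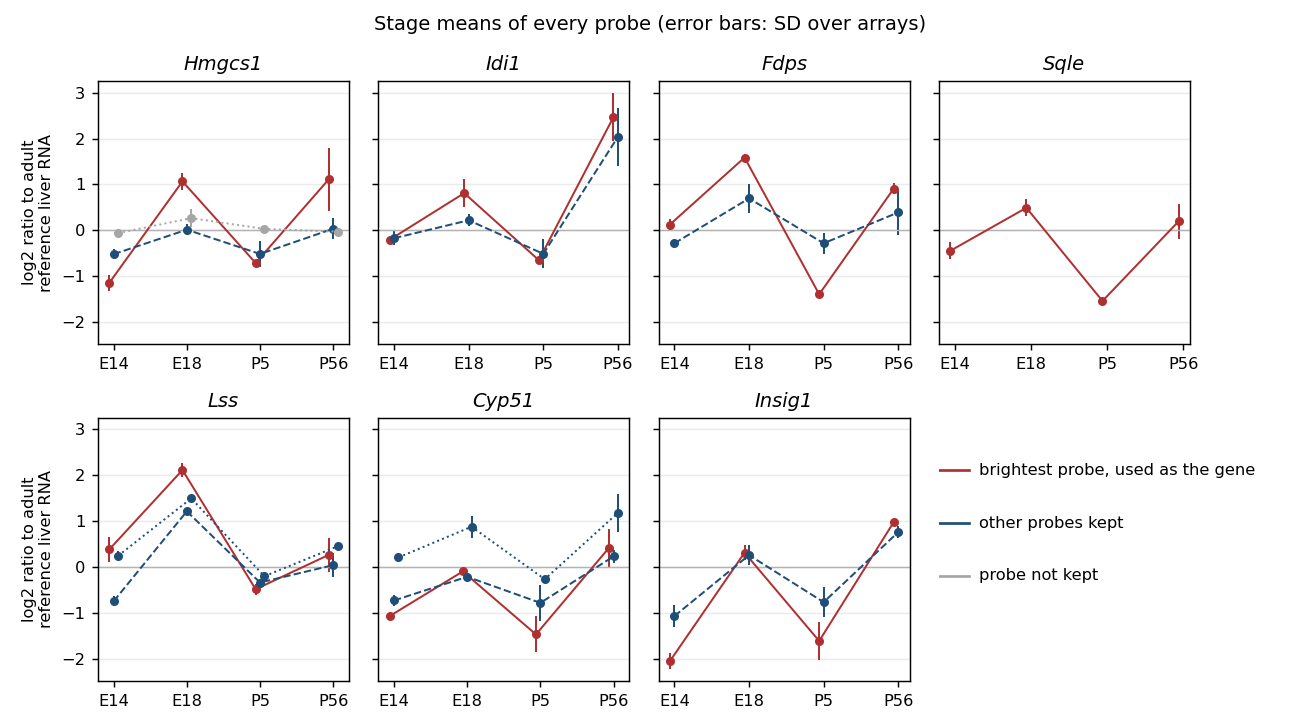
Lines join the stage means of the log2 ratio for each probe of a gene, with the SD over arrays as bars: red for the brightest probe, blue for other kept probes, grey for the Hmgcs1 probe that was not kept. The blue lines go the same way as the red ones between successive stages, mostly over a smaller range.

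Within a stage, the members also moved together on some arrays. P56 replicate 3 had the highest P56 ratio for 7 of 7 members, 0.07 to 0.60 above their stage means, while it was highest for 26.9% of all genes. E14 replicate 2 was above the stage mean for 0 of 7 members, with deviations of -0.31 to -0.02, and for 42.1% of all genes. Idi1 had a value on only 2 E14 arrays, so 1 of its 2 had to lie below their mean. The spread among P56 arrays was widest for Hmgcs1 (SD 0.68) and Idi1 (SD 0.53) and narrowest for Insig1 (SD 0.06). Over all arrays, Pearson's r between 2 members ranged from 0.20 for Lss with Idi1 to 0.97 for Sqle with Fdps, with a median of 0.79 over 21 pairs. The points behind r are 10 or 11 arrays in 4 stages that share 1 reference RNA, so r describes mainly the stages.

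**Figure D4:**
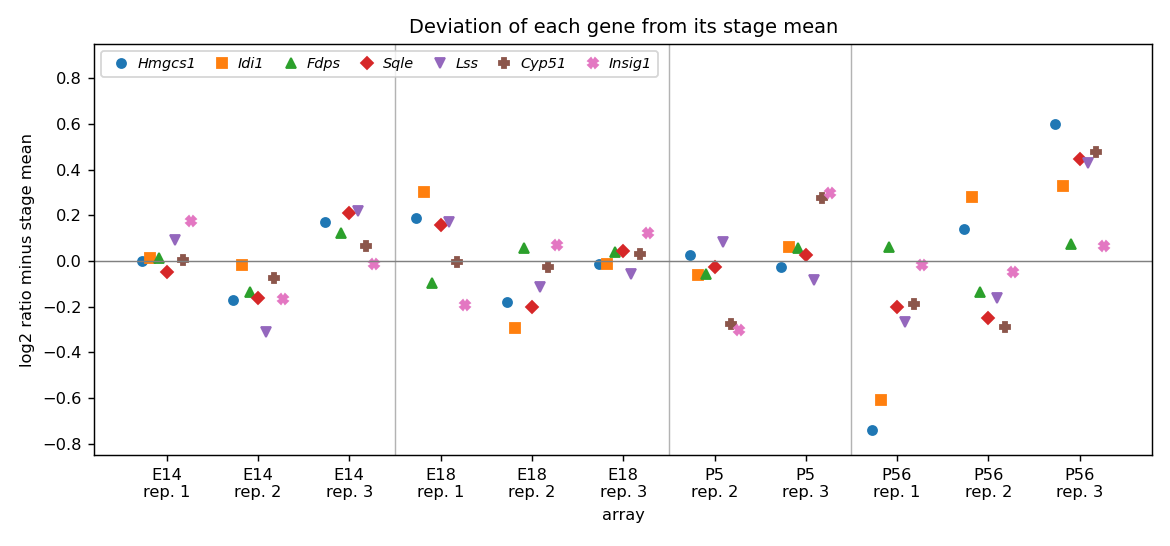
The vertical axis is a gene's log2 ratio on an array minus its stage mean, and the horizontal axis lists the 11 arrays by stage and replicate, with 1 symbol per gene. All 7 symbols are above 0 for P56 replicate 3 and below 0 for E14 replicate 2, and the P56 arrays spread most.

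The remaining enzymes between acetyl-CoA and cholesterol mostly went the same way. Of 14 such enzymes tested, 10 were higher and 1 lower at E18 than at E14 (median 1.05), 1 was higher and 9 lower at P5 than at E18 (median -1.08), and 12 were higher and 1 lower at P56 than at P5 (median 1.66). In the other direction to the members, 22.8% of all genes were lower at E18, 7.32% higher at P5 and 24.7% lower at P56. Pmvk, the phosphomevalonate kinase, followed the members in all 3 steps (0.79, -1.78 and 2.56), as did Fdft1, the squalene synthase (1.19, -1.54 and 0.70). So did Sc4mol, the sterol methyl oxidase now named Msmo1 (0.55, -1.45 and 3.03), and Nsdhl, which acts beside it (0.92, -1.57 and 1.78). In the late steps of the pathway Dhcr7 (1.49, -1.90 and 1.81), Sc5d (2.36, -0.97 and 2.31), Ebp (1.73, -0.67 and 1.55) and Tm7sf2 (1.92, -1.18 and 1.95) passed in all 3 comparisons too.

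Other enzymes departed from this course in 1 or more steps. Mvd, which makes isopentenyl diphosphate, did not pass at E18 (0.41) but fell at P5 (-1.36) and rose at P56 (2.03), and Hsd17b7 rose at E18 (1.53) and P56 (0.77) but did not pass at P5 (-0.56). Acat2, the cytosolic thiolase at the start, rose at P5 (0.37) and P56 (0.92). Mvk, the mevalonate kinase, fell at E18 (-0.44) and rose at P56 (0.97). The Mvk call at E18 was lost without any 1 of E14 replicates 1 and 3 and the E18 arrays (adjusted p of 0.0533 to 0.107), that of Sc4mol without E14 replicate 2 or E18 replicate 1 (0.0716 to 0.0737), and that of Acat2 at P5 without any 1 of P5 replicates 2 and 3 and E18 replicates 2 and 3 (0.0509 to 0.128). At P56, Fdft1 was lost without P5 replicate 2 (0.0756) and Hsd17b7 without P5 replicate 3 (0.0632). Lbr, a sterol reductase that is also a protein of the nuclear envelope, passed the test only in the last step among these 3, where it fell by 2.28. Its differences at E18 (0.25, adjusted p = 0.29) and P5 (-0.50, adjusted p = 0.13) did not pass. Centring on the median moved all genes by -0.47 for P56 against P5, and under it Lss (-0.059), Fdft1 (-0.13) and Hsd17b7 (-0.063) were below 0 but above that median. Calls also lost under it were those of Mvk (adjusted p = 0.0707) and Sc4mol (0.153) at E18, Acat2 (0.0958) and Ebp (0.3) at P5, and Acat2 (0.221) and Mvk (0.457) at P56.

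Among 12 regulators of SREBP and sterol sensing tested, 7 were higher and 1 lower at E18, 2 higher and 3 lower at P5, and 5 higher and 3 lower at P56, with medians of 0.56, -0.02 and 0.07. Srebf1, which encodes the SREBP that favours fatty acid genes, rose at E18 (1.99), fell at P5 (-1.60) and rose at P56 (0.90). Srebf2, whose product favours the cholesterol genes, did not pass at E18 (0.25), fell at P5 (-0.64) and fell again at P56 (-0.34). The P56 calls were lost for Srebf1 without either P5 array (adjusted p of 0.0936 and 0.109) and for Srebf2 without either P5 array or P56 replicate 1 or 2 (0.0507 to 0.155). Insig2, the relative of Insig1, rose in all 3 steps (1.13, 1.46 and 0.28), unlike Insig1. Stard4, a cytosolic sterol carrier, had the course of the members (1.13, -0.91 and 0.66). Under median centring the P5 calls of Srebf1, Srebf2 and Stard4 were lost (adjusted p of 0.0726, 0.106 and 0.0736), as was that of Srebf1 at P56 (0.602).

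Uptake, esterification and efflux of cholesterol were read from 13 genes tested, of which 9 were higher at E18, 3 were higher and 1 lower at P5, and 6 were lower at P56. Their medians were 0.65, -0.03 and -0.35, so at P56 the list lay below P5 where the 7 members lay above it. Abca1, the exporter of cholesterol to lipoproteins (2.53 at E18, -1.29 at P56), Lcat, the plasma esterifying enzyme (1.98 at E18), and Soat1, an intracellular esterifying enzyme (1.89 at E18, -1.93 at P56), had the largest rises at E18. Abcg5, part of the exporter into bile, rose most at P5 (2.02), and Npc2, a lysosomal cholesterol carrier, was the gene that fell there (-0.69). Scarb1, the receptor for high-density lipoprotein, rose at E18 (1.23) and fell at P56 (-1.06).

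As a list, branches that leave the mevalonate pathway before squalene did not show the members' course. Of 8 such genes tested, 1 was higher and 5 lower at E18, 1 higher and 1 lower at P5, and 3 higher and 2 lower at P56, with medians of -0.38, -0.01 and -0.08. At P56, 20.9% of all genes were higher and 24.7% lower. Dhdds went with the members at E18 (0.33, adjusted p = 0.016) and P5 (-0.42, adjusted p = 0.028), but did not pass at P56 (-0.014). Its E18 call was lost without E14 replicate 2 or E18 replicate 2 (adjusted p of 0.0662 to 0.0706). Under median centring both calls were lost (0.0815 and 0.157). Ggps1, which uses the product of Fdps, was lower at E18 (-0.50) and higher at P56 (0.50), and Pdss1, a synthase of the ubiquinone tail, was lower at E18 (-0.61) and at P56 (-0.65). The P56 calls were lost without P5 replicate 2 for Pdss1 (adjusted p = 0.196), and for Ggps1 without P5 replicate 2 or P56 replicate 3 (0.0664 to 0.101) and under median centring (0.0093, adjusted p = 0.961). That of Pdss1 at E18 was lost without E14 replicate 2 (0.0529).

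Genes with a pattern most like that of the members were ranked by Pearson's r to the mean z-score of the 7 genes over the 11 arrays, among 16697 other genes whose median r was 0.01. The 10 highest had r of 0.91 to 0.98. Those named here are Rdh11 (0.98), Dhcr7 (0.97), Nsdhl (0.97), Tmem97 (0.95), Acsl3 (0.94), Fkbp11 (0.93), Eif4ebp1 (0.91) and Acss2 (0.91). Rdh11, for example, had stage means of -1.05 at E14, 0.83 at E18, -1.56 at P5 and 0.69 at P56. These values describe likeness over 4 stages with a shared reference and were not tested.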

How the data were processed

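Spot intensity in both channels, local background and quality marks were deposited by the authors as Feature Extraction 9.5.1.1 wrote them, with no scaling between arrays, and the authors also deposited a gene table of log2 ratios after lowess, used here as an alternative only. Background was corrected by normexp (offset 50) and the log2 ratio of Cy5 over Cy3 adjusted by loess array by array. The 1639 control spots had no weight, and outlier spots were left out. Intensities hold no counts, so the number of arrays limits the precision. Probes were kept if every array of 1 or more stages had them well above background in Cy5 and no stage lacked more than 1 value, and a gene was read from its brightest kept probe. Stages were compared with limma 3.58.1 in R 4.3.3 (lmFit and eBayes over all 11 arrays, Benjamini-Hochberg adjustment over 16704 genes, threshold 0.05), a fit tested on simulated data. Groups came from the labels. The genes and lists were chosen with earlier results of these data known. Named are the 7 genes, the other sterol enzymes, up to 3 genes of each other list with the largest called change in each direction and comparison, and the genes most like the 7, of which some, and 1 sterol enzyme, are not reported here. Sequences came from the array files and RefSeq. Alternatives were other background corrections, scalings, filters and probe choices, the Cy5 channel alone, the authors' table, only the compared stages, replicate or scan blocks, the methods' t-test, and each array left out. Plots used Python 3.11.15 and matplotlib 3.10.9.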

Additional observations from a re-analysis of the deposited data

How the results depend on the processing

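Each array left out in turn left 7 members called at E18 against E14 and at P5 against E18, 6 to 7 at P56 against P5, 4 to 6 at P56 against E18, 6 at P56 against E14 and 3 to 5 at P5 against E14. With an E14, E18 or P56 array left out, 21% to 25.5% of all genes were higher at E18 against E14 and 3.37% to 8.07% lower at P5 against E18. At P56 against P5 17.1% to 20.3% were higher, and at P56 against E14 32.5% to 35.8%. For P56 against E18 27.7% to 30.5% were higher and 30.5% to 33% lower, and for P5 against E14 21.6% to 26% higher and 20.3% to 25.1% lower. The counts of members called moved by over 1.5 times only in these cases: with the methods' t-test after adjustment 1 member was called at P5 against E18, 1 at P56 against P5 and 2 at P5 against E14, and at P5 against E14 also 2 with the mean over all kept probes and 2 with the authors' table. Before adjustment the methods' t-test called 7 members at P5 against E18 and 6 at P56 against P5. After adjustment it called 0.126% of all genes as lower at P5 against E18 and 0.629% as higher at P56 against P5. At P5 against E14, 12.7% of all genes were lower by the adjusted t-test, 24.9% with the mean over kept probes and 5.64% in the authors' table. Over all genes, the authors' table called 292 of 28050 at P5 against E18, where the reported fit called 2292, and 63.9%, 72.9% and 65.2% of its calls were higher at E18 against E14, P5 against E18 and P5 against E14, against 51.9%, 53.4% and 50.7% as reported. Genes called at P5 against E18 numbered 928 without P5 replicate 3, 3763 without P5 replicate 2, 1387 without E18 replicate 2 and 1268 without E18 replicate 3, and at P56 against P5 4741 without P5 replicate 2, against 7615 as reported. Whether replicate numbers pair arrays is not settled. The deviations of same-numbered arrays correlated with r of -0.31 to 0.19 over 15 pairs, and those of other pairs with -0.46 to 0.46. Deviations from a stage mean cancel within a stage, so these r are not independent and cannot exclude pairing. With a replicate block 7, 7, 7, 5, 6 and 3 members were called in the 6 comparisons, the last without Insig1. In that fit 23.7%, 18.3% and 35% of all genes were higher at E18 against E14, P56 against P5 and P56 against E14, and 4.66% lower at P5 against E18. At P56 against E18 30% were higher and 32.7% lower, and at P5 against E14 22.5% were lower. The scan as a fixed block could be fitted for E18 against E14 and P56 against P5, with 7 members called in each, beside 17.9% and 12.1% of all genes as higher. Under median centring in place of loess, which moved all genes by medians of -0.47 for P56 against P5, -0.42 for P56 against E18 and -0.33 for P56 against E14, 6.84%, 14.9% and 22.9% of the genes called were higher, against 45.7%, 48.1% and 51% as reported, and these differences changed sign and were nearly all above that median. For P56 against P5 they were Lss (-0.059), Fdft1 (-0.13), Hsd17b7 (-0.063) and Fnta (-0.48, below it). For P56 against E18 they were Hmgcs1 (-0.22), Cyp51 (-0.34), Insig1 (-0.22), Mvk (-0.10), Mvd (-0.24) and Icmt (-0.63, below it), and for P56 against E14 Sqle (-0.087) and Coq2 (-0.092). Hmgcs1 for P56 against E18, near 0 as reported, also turned with the scanner software's signals (-0.036), the Cy5 channel alone (-0.11), the authors' table (-0.66) and the leave-one-out fits, which ran from -0.25 to 0.42. The authors' table turned Mbtps1 (0.16) and Dhdds (0.014) for P56 against E18, Lss for P56 against E14 (0.53) and Hmgcs1 for P5 against E14 (-0.13). The mean over kept probes turned Dhdds for P56 against E18 (0.017) and, for P56 against E14, Lss (0.29) and Soat1 (0.25). Lss for P56 against E14 was -0.33 to 0.015 with an array left out, and Icmt for P5 against E14 was -0.15 from the Cy5 channel alone. The causes were not tested.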

Other observations

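Fatty acid synthesis, which shares its precursor with cholesterol synthesis, was read from 9 genes. All 9 were higher at E18 than at E14 (median 1.35), 5 were lower at P5 than at E18 (median -1.67), and 8 were higher and 1 lower at P56 than at P5 (median 2.13). Fasn, the fatty acid synthase, had log2 fold changes of 2.19, -2.51 and 3.56 in these 3 steps, and Elovl6, an elongase, 2.29, -2.52 and 4.21. Scd2, a desaturase, rose at E18 (1.80), fell at P5 (-4.56) and fell again at P56 (-2.09), while Thrsp, a lipogenic protein, did not pass at P5 (-0.36) and rose by 6.39 at P56.

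Bile acid synthesis, the main route by which the liver disposes of cholesterol, was read from 6 genes, of which 4 were higher at E18 than at E14, 1 was lower at P5 than at E18 and 6 were higher at P56 than at P5, with medians of 0.72, 0.30 and 1.17. Cyp7a1, its rate-limiting enzyme, rose at E18 (2.86), was the gene that fell at P5 (-0.83, with adjusted p of 0.0687 to 0.111 without any 1 of E18 replicates 1 and 3 and P5 replicate 2, and 0.0704 under median centring) and rose at P56 (3.63), where Cyp7b1 rose by 3.16.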
